A study of Arabidopsis thaliana with 27 samples.

Results

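The comparison described here set leaves of an Arabidopsis thaliana triple mutant, labelled cbp60g,cbp60h,pad4 triple, against leaves of the wild-type accession Col-0, both infiltrated with Pseudomonas syringae ES4326 (called Psm in the sample titles) and harvested 24 h later. It rests on 6 of the series' 27 arrays, 3 of each genotype, paired by the set number in the titles (sets 1 to 3), and on the 181 of 576 probes that carry a single gene name. Plants were 4 weeks old, and each RNA sample pooled 2 leaves per plant from 3 pots. The labels call each set an experiment and the sets biological replicates. Arrays used for reference were the cbp60g,cbp60h double mutant and pad4-1 with Psm at 24 h (3 arrays each), Col-0 and the triple mutant at 9 h after Pseudomonas syringae pv. tomato DC3000 hrcC (2 arrays each, sets 1 and 2), and 1 array of each of these last genotypes at 24 h after hrcC (set 3). To share 1 estimate of the spread, the fit also took in the double mutant and pad4-1 at 9 h after hrcC (2 arrays each) and the cbp60h mutant at 9 h after hrcC (3 arrays), 23 arrays in all. The alleles combined in the double and triple mutants are not stated in the labels, and no uninfiltrated or mock-infiltrated leaf was analysed here, so each value compares genotypes within one infection. According to the series title, the study was about partial redundancy of CBP60g and CBP60h in salicylic acid signaling.

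CBP60g and CBP60h (the latter also known as SARD1) are related plant transcription factors that switch on the genes of salicylic acid production when leaves sense bacteria. PAD4 is a lipase-like protein that works with EDS1 in the same defence network and is needed for full salicylic acid accumulation after infection by virulent Pseudomonas. Psm is a virulent leaf pathogen that injects effector proteins through a type III secretion system, whereas an hrcC strain lacks a working one and presents mainly the surface patterns of the bacterium. Salicylic acid defence and the jasmonate-ethylene branch, of which the defensin gene PDF1.2 is a classical marker, often oppose each other in leaves.

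Values are the deposited levels on a logarithmic scale, taken as log2. Which base was used is not stated in the labels, so differences are in log units and no fold is given. The 3 Col-0 arrays had medians over all probes of 4.48, 4.44 and 4.41, and the triple mutant arrays of sets 1 to 3 had 4.07, 4.38 and 4.23. The mutant arrays thus lay lower as a whole, with set 1 the lowest. Pearson's r between replicate arrays was 0.936 to 0.968 in Col-0 and 0.962 between sets 1 and 3 of the triple mutant, but 0.899 and 0.920 between set 2 and these, so the set 2 array of the triple mutant stood somewhat apart. No named probe stands for CBP60g, CBP60h or PAD4, and the genotypes were therefore not checked on the targeted genes. None of 13 marker genes of mesophyll, guard cells, vasculature, epidermis and root was among the named probes, so the tissue was not checked either.

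Of the 181 genes, 69 (38.1%) differed between the triple mutant and Col-0 at an adjusted p under 0.05 in limma, with 20 higher (11% of all genes) and 49 lower (27.1%). The falls included UGT76B1, WRKY53 and GRX480 of the salicylic acid response, all 5 genes for EF-hand or calmodulin-like calcium sensors, both AAA-type ATPase genes and 3 of 6 chaperone genes. The rises included 4 of 6 genes of the hydrolase, lipase and phosphorylase-like families, PDF1.2, both sulfate assimilation genes and a beta-tubulin gene. In whole leaves, fewer cells of a type and less RNA per cell cannot be told apart. The 49 falls had a median size of 1.47 log units, and 12 of them were of 2 or more, 26 of 1 to 2 and 11 under 1. The 20 rises had a median size of 1.08, with 4 of 2 or more, 7 of 1 to 2 and 9 under 1. For comparison, the median SD within a group was 0.28 in Col-0 and 0.29 in the triple mutant, and the median standard error of a difference was 0.23. Fitted on the 6 arrays alone, 51 genes were called, 15 higher and 36 lower. At an unadjusted p under 0.05 there were 81 genes (44.8%). Levels of all 3 mutant arrays lay beyond all 3 Col-0 arrays for 73 genes (40.3%), 22 higher (12.2%) and 51 lower (28.2%), and 61 of the 69 called genes were among these.

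The balance between rises and falls depended on how the arrays were scaled. It was 20 to 49 on the deposited scale, 25 to 45 after re-centring on the median of the named probes, 29 to 42 after re-centring on the median of all probes and 37 to 38 after quantile normalization. The median difference over the 181 genes moved with it, from -0.13 as deposited to 0.02, 0.08 and 0.11, so the median of all genes is the point against which the values below are read. All 20 rises and 37 of the 49 falls were called on each of the 4 scales, and no gene was called in opposite directions. The other scales all moved the median difference upward, which favours rises. They therefore put the falls to a test but hardly the rises.

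**Figure D1:**
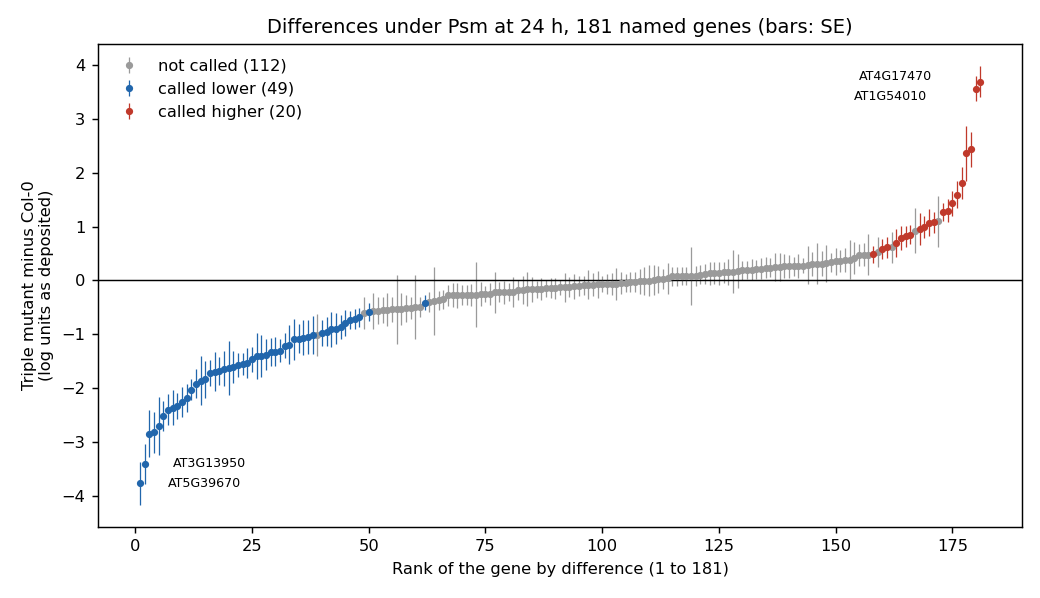
The horizontal axis ranks the 181 named genes by the difference between triple mutant and Col-0 under Psm at 24 h, and the vertical axis gives that difference in log units as deposited, with bars for its standard error. Blue points are the 49 genes called lower, red points the 20 called higher and grey points the 112 not called; AT5G39670 and AT3G13950 lie at the low end and AT4G17470 and AT1G54010 at the high end.

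Salicylic acid genes were represented by 3 of the 24 genes listed for synthesis, signalling and response, and all 3 fell (27.1% of all genes fell). UGT76B1 encodes a glucosyltransferase that acts on isoleucic acid and on salicylic acid itself. It stood at 5.37, 5.95 and 5.38 in the Col-0 arrays of sets 1 to 3 and at 2.77, 3.83 and 3.02 in the triple mutant. The 2 groups did not overlap, and set 2 was the highest in both. UGT76B1 fell by 2.36 (SE 0.32, adjusted p = 1.65e-05). WRKY53, a transcription factor gene induced early by salicylic acid and during senescence, gave 4.76, 4.89 and 4.57 in Col-0 and 2.64, 3.0 and 2.81 in the mutant. Its arrays were tightly grouped within each genotype and it fell by 1.92 (SE 0.27, adjusted p = 2.38e-05). GRX480 encodes a glutaredoxin that binds TGA factors and, when overproduced, represses PDF1.2. Its levels were 8.70, 8.26 and 8.28 in Col-0 against 7.88, 6.67 and 6.73 in the mutant, where set 1 was the highest array. GRX480 fell by 1.32 (SE 0.27, adjusted p = 0.000748).

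The jasmonate and ethylene list of 16 genes had 1 measured member, PDF1.2, and it rose. PDF1.2 was at 2.95, 3.21 and 2.70 in Col-0 and at 5.91, 5.53 and 4.50 in the triple mutant. All 3 mutant arrays were above all Col-0 arrays, with set 3 the lowest in both genotypes. The rise was 2.36 (SE 0.52, adjusted p = 0.00135) and its call was kept when any of the 6 arrays was left out, at values from 1.96 to 2.65 over all the settings tried. Arabidopsis has near-identical PDF1.2 copies, and probe sequences were not used here, so the signal may include those copies. The protease inhibitor gene AT2G38870, of the potato inhibitor type I family, went the other way, and fell by 1.06 (SE 0.33, adjusted p = 0.016, and 0.0934 without the set as a block). Its Col-0 array of set 1 was far above the other Col-0 arrays (7.56 against 5.79 and 6.0), and the fall lost its call without that array (-0.74, adjusted p = 0.123) or without the triple mutant array of set 1 (-0.73, adjusted p = 0.129). On the 6 arrays alone the AT2G38870 fall was not called either (adjusted p = 0.169). AT3G59930, the other member of this group, differed by 0.08 (SE 0.55).

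Of the calcium sensor genes, 5 of 5 were called lower (27.1% of all genes were), with a median of -1.64 against -0.13 over all genes, and 4 of 5 were after quantile normalization or re-centring on all probes. AT5G39670, an EF-hand gene, had the largest difference of the 181 named genes in either direction on the deposited scale. Its levels were 7.15, 6.28 and 7.19 in Col-0 and 3.03, 3.06 and 3.21 in the mutant. The mutant arrays lay close together and far below Col-0, a fall of 3.77 (SE 0.40, adjusted p = 1.72e-06). AT2G41090, a calmodulin-like gene, went from 8.26, 9.34 and 8.69 to 7.30, 6.18 and 7.23, and AT2G41410 from 9.25, 8.85 and 9.06 to 7.68, 7.07 and 7.50. They fell by 1.86 (SE 0.46) and 1.64 (SE 0.33), and neither gene's groups overlapped. On the 6 arrays alone AT2G41090 (adjusted p = 0.0658), AT4G27280 and CML42 (adjusted p = 0.0976 for both) were not called. AT4G27280 fell by 1.40 (SE 0.39) and CML42, which encodes a calmodulin-like protein with a role in leaf hairs and in responses to herbivores, by 1.01 (SE 0.36, adjusted p = 0.0332, and 0.0653 without the set as a block). Both of the latter rested on single arrays: AT4G27280 was at -1.14 (adjusted p = 0.0602) without the Col-0 array of set 1 and at -1.17 (adjusted p = 0.0604) without the mutant array of set 1. CML42 lost its call without the Col-0 array of set 1 or 3 (-0.93 and -0.82) and without the mutant array of set 1 or 3 (-0.75 and -1.04).

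Among genes with a heavy-metal-associated domain, AT5G52760 and AT5G60800 fell and AT2G36950 rose. AT5G52760 was at 7.20, 6.47 and 6.16 in Col-0 and at 3.95, 4.24 and 3.18 in the mutant, and AT5G60800 at 6.85, 6.39 and 6.16 against 3.85, 4.49 and 3.48. The 2 genes kept the same order of arrays in Col-0, and in the mutant set 2 was the highest and set 3 the lowest for both. They fell by 2.82 (SE 0.38, adjusted p = 1.53e-05) and 2.52 (SE 0.28, adjusted p = 2.22e-06). AT2G36950 rose by 0.82 (SE 0.20, adjusted p = 0.00306), and its lowest mutant array (4.14, set 1) only just exceeded its highest Col-0 array (4.13, set 3). Its rise was not called without set 2 (0.61) or on the 6 arrays alone (adjusted p = 0.057). Both AAA-type ATPase genes fell (27.1% of all genes fell), AT3G28540 by 2.33 (SE 0.24, adjusted p = 1.72e-06) and AT3G28510 by 1.72 (SE 0.24, adjusted p = 1.95e-05). On the chromosome they are near each other, with 2 protein-coding genes between them.

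Several of the largest falls belonged to genes outside these families. AT3G13950, for which no function is given here, was at 7.80, 6.53 and 6.47 in Col-0 and at 3.70, 3.50 and 3.39 in the mutant, a fall of 3.41 (SE 0.37, adjusted p = 1.96e-06). AT1G76960, likewise without a stated function, was at 9.49, 10.2 and 9.80 in Col-0 and gave 7.52, 5.78 and 7.63 in the mutant. The mutant array of set 2 was the lowest here, in contrast to most falls, and the difference was -2.84 with it (SE 0.43, adjusted p = 5.19e-05) and -2.35 without it. AT1G09500, of the cinnamyl alcohol dehydrogenase-like family, fell by 2.70 (SE 0.54), AT4G25900, galactose mutarotase-like, by 2.19 (SE 0.26) and AT4G00700, with C2 domains, by 2.03 (SE 0.19, adjusted p = 6.82e-07). AT4G00700 was dim, and the filter on dim probes (mean under 3.4) left it out. AT2G18690, without a stated function, fell by 1.84 (SE 0.34), and its mutant array of set 2 (5.15) was close to the lowest Col-0 array (5.48). Its fall was not called without set 1 (-1.31) or on the 6 arrays alone (adjusted p = 0.0836).

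Chaperone genes were lower or not called. Hsp70-2 (AT5G02490), a cytosolic heat shock protein 70 gene, stood at 6.42, 6.20 and 5.75 in Col-0 and at 3.43, 4.64 and 3.10 in the mutant, a fall of 2.40 (SE 0.29, adjusted p = 5.11e-06). BIP1, which encodes a folding chaperone of the endoplasmic reticulum, fell by 0.97 (SE 0.24, adjusted p = 0.00369), from 5.41, 5.98 and 5.80 to 4.35, 5.09 and 4.82. The further Hsp70 gene AT3G09440 fell by 0.90 (SE 0.33, adjusted p = 0.0354, and 0.0621 without the set as a block) with overlapping groups, and it lost that call on each of the other 3 scales, and without the Col-0 array of set 1 or 2 (-0.90 and -0.73) or the mutant array of set 1 or 3 (-0.73 and -0.64). Near-identical Hsp70 copies may share a probe. The small heat shock genes AT2G29500 and AT2G19310 differed by -0.49 (SE 0.59) and -0.22 (SE 0.39), and AT5G48570, an immunophilin gene, by -0.57 (SE 0.33). The AT2G29500 arrays of the mutant were spread widely, at 4.42, 7.78 and 5.15.

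Of 3 chitinase genes, CHI (AT2G43570) fell. It was nearly constant in Col-0 (8.23, 8.25 and 8.19) and stood at 5.91, 5.77 and 6.21 in the mutant, a fall of 2.26 (SE 0.27, adjusted p = 5.7e-06). The chitinase genes AT4G01700 and AT2G43620 differed by -0.51 (SE 0.21, adjusted p = 0.0589) and 0.48 (SE 0.38). Aspartyl protease genes AT3G51330 and AT2G39710 fell by 1.47 (SE 0.24) and 1.30 (SE 0.21), while AT1G03220 differed by -0.37 (SE 0.63) and AT5G19110 by 0.12 (SE 0.19). The berberine bridge enzyme-like gene AT1G26380, whose product takes part in making cyanogenic defence compounds, fell by 1.38 (SE 0.29). It was not called without set 1 (-0.95) or on the 6 arrays alone (adjusted p = 0.0734). The family member AT2G34810 differed by 0.93 (SE 0.42, adjusted p = 0.0932) and was called higher on each of the other 3 scales. None of 3 peroxidase genes was called (38.1% of all genes were), at -0.27, 0.02 and 0.35.

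Of the regulatory genes, WRKY53 is described above. WRKY6 fell by 0.95 (SE 0.27, adjusted p = 0.00875), but the highest mutant array (4.26, set 2) exceeded the lowest Col-0 array (4.12, set 3), and the call was lost without the Col-0 array of set 1 (-0.81) or the mutant array of set 1 or 3 (-0.80 and -0.67). On the 6 arrays alone WRKY6 was not called (adjusted p = 0.0792). WRKY22 and WRKY29, transcription factors of pattern-triggered signalling, differed by -0.28 (SE 0.22) and -0.02 (SE 0.23). The RING-type genes AT1G08050 and AT2G42360 fell by 1.57 (SE 0.22) and 1.55 (SE 0.20), whereas AT4G26400 and AT3G48070 differed by -0.37 and -0.25. The receptor-like kinase genes AT3G09010 and AT1G11050 fell by 0.68 (SE 0.18) and 0.59 (SE 0.17) on the deposited scale, and neither was called after quantile normalization (-0.23 and -0.21) or after re-centring on all probes (-0.47 and -0.37). AT3G09010 was at -0.49 (adjusted p = 0.0509) without the mutant array of set 3, and AT1G11050 at -0.47 (adjusted p = 0.0706) without that of set 1 and not called without the set as a block (adjusted p = 0.0532). AT1G11050 was also not called after re-centring on the named probes (-0.44). EXO, a cell wall-linked growth gene, fell by 1.70 (SE 0.37), AT3G62780, with a C2 domain, by 1.08 (SE 0.27), and ARA6, a plant-specific Rab5-type GTPase of endosomes, by 0.72 (SE 0.19). After quantile normalization AT3G62780 (-0.67, adjusted p = 0.0619) and ARA6 (-0.50, adjusted p = 0.0524) were not called, and neither were EXO without set 1 (-1.27, adjusted p = 0.0875) and AT3G62780 without set 3 (-0.98, adjusted p = 0.0516). ATG8E, an autophagy gene, lay just outside the threshold at -1.01 (SE 0.39, adjusted p = 0.0513) although its groups did not overlap.

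Several of the largest rises belonged to genes for alpha/beta hydrolases, GDSL-type lipases and phosphorylase-like proteins, separate families put in 1 group here. Like the other groups, it was chosen with earlier results of these data known, so its counts only describe its members. In it 4 of 6 genes rose (11% of all genes rose) and 1 fell. The median of 2.13 stayed between 2.13 and 2.34 on the 4 scales. AT4G17470, an alpha/beta hydrolase gene, stood at 4.19, 5.43 and 4.66 in Col-0 and at 8.74, 8.44 and 8.20 in the triple mutant. The groups were widely separated, and the rise was 3.70 (SE 0.29, adjusted p = 5.54e-08). AT1G54010 encodes a GDSL-type lipase-like protein. It went from 2.87, 3.73 and 3.22 to 6.84, 7.04 and 6.64, a rise of 3.56 (SE 0.24, adjusted p = 8.66e-09) with mutant arrays close together.

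AT4G24350 and AT4G24340, phosphorylase superfamily genes with no protein-coding gene between them, rose by 2.44 (SE 0.32) and 1.81 (SE 0.30). AT4G24350 was at 3.62, 3.97 and 4.27 in Col-0 and at 6.55, 5.98 and 6.64 in the mutant, and AT4G24340 at 2.94, 3.01 and 3.44 against 5.39, 4.27 and 5.16. For both genes set 3 was the highest in Col-0 and set 2 the lowest in the mutant. AT1G68620, also an alpha/beta hydrolase gene, fell by 1.33 (SE 0.25, adjusted p = 0.000411), and the lipase-like gene AT3G16370 differed by 0.29 (SE 0.36).

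Both genes of sulfate assimilation rose, 2 of 2 where 11% of all genes did. APS3 encodes ATP sulfurylase, which activates sulfate, and SIR encodes sulfite reductase, which makes sulfide in the chloroplast. APS3 went from 3.09, 3.40 and 3.32 to 4.75, 4.45 and 4.91, a rise of 1.44 (SE 0.24, adjusted p = 9.72e-05). SIR went from 4.09, 4.45 and 4.57 to 5.40, 5.79 and 5.14, a rise of 1.07 (SE 0.25, adjusted p = 0.00246). Neither gene's groups overlapped.

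Other rises were spread over several families. TUB6, a beta-tubulin gene, was at 4.02, 4.48 and 4.45 in Col-0 and at 5.79, 5.92 and 6.04 in the mutant (difference 1.60, SE 0.24, adjusted p = 5.52e-05), while SPR1, a microtubule-associated gene, differed by -0.55 (SE 0.24, adjusted p = 0.0869). AT2G26690, which encodes the nitrate and peptide transporter family member NPF6.2, rose by 1.30 (SE 0.21), and AT5G21105, ascorbate oxidase-like, by 1.27 (SE 0.17, adjusted p = 1.14e-05). Of 7 glycosyltransferase genes UGT84A3, which acts on hydroxycinnamic acids, rose by 1.08 (SE 0.19), UGT74B1, of glucosinolate synthesis, rose by 0.85 (SE 0.18), and UGT76B1 fell as described. AT1G62660, a vacuolar invertase gene, rose by 0.99 (SE 0.21). The thioredoxin m gene ATHM2 rose by 0.79 (SE 0.22) but was at 0.59 (adjusted p = 0.0587) without the Col-0 array of set 2. It was not called on the 6 arrays alone (adjusted p = 0.0742). LHCB4.3, of the light-harvesting antenna, rose by 0.70 (SE 0.25, adjusted p = 0.0365, and 0.0532 without the set as a block), and its Col-0 array of set 1 (2.68) was more than 1 log unit below the other 2, so that the value was 0.34 (adjusted p = 0.291) without it. The LHCB4.3 call was also lost without each of the 3 mutant arrays, at 0.65 to 0.75, and on the 6 arrays alone (adjusted p = 0.151).

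**Figure D2:**
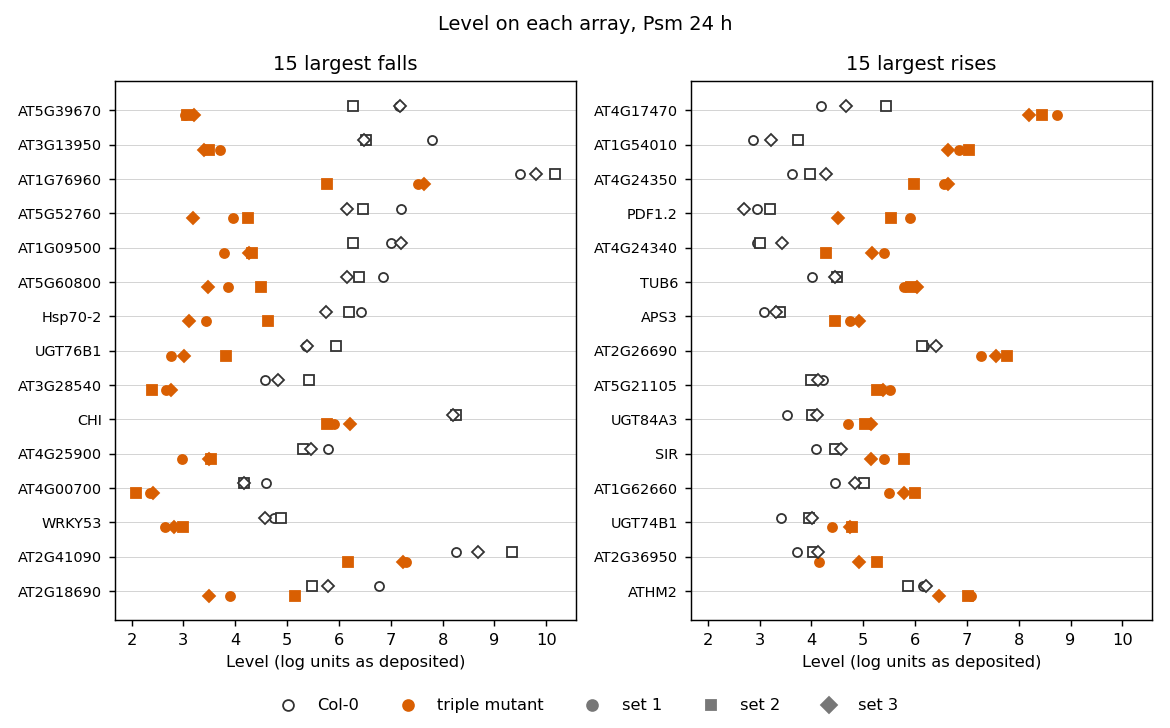
Each row is a gene and each point 1 array under Psm at 24 h, with the deposited level in log units on the horizontal axis; open symbols are Col-0, filled symbols the triple mutant, and circles, squares and diamonds are sets 1, 2 and 3. The left panel holds the 15 largest falls and the right panel the 15 largest rises among called genes whose groups do not overlap, from AT5G39670 to AT2G18690 and from AT4G17470 to ATHM2.

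Genes of basic cell functions are described next. Those for histones, translation, the respiratory chain and proton pumps were grouped after values had been seen, so they are no control. None of 11 genes for histones, translation and the respiratory chain was called on the deposited scale, where 38.1% of all genes were, at differences from -0.27 to 0.62 and a median of -0.05. After re-centring on all probes the median was 0.17 and 2 of the 11 were called higher, and 1 was called higher after re-centring on the named probes and 1 after quantile normalization. AT5G60390, a translation elongation factor gene, differed by 0.04 (SE 0.29). The 3 genes of vacuolar proton pumps ranged from -0.28 to -0.16 on the deposited scale, with a median that turned from -0.18 to 0.03 after re-centring on all probes and to 0.10 after quantile normalization, and 7 of 8 genes of vesicle traffic and autophagy were not called. AT2G04400 and AT2G25450, of tryptophan and glucosinolate metabolism, differed by 0.26 (SE 0.26) and 0.32 (SE 0.35). These groups, like the RING-type, C2 and chloroplast groups, were put together after values had been seen, except those of vesicle traffic and of tryptophan.

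**Figure D3:**
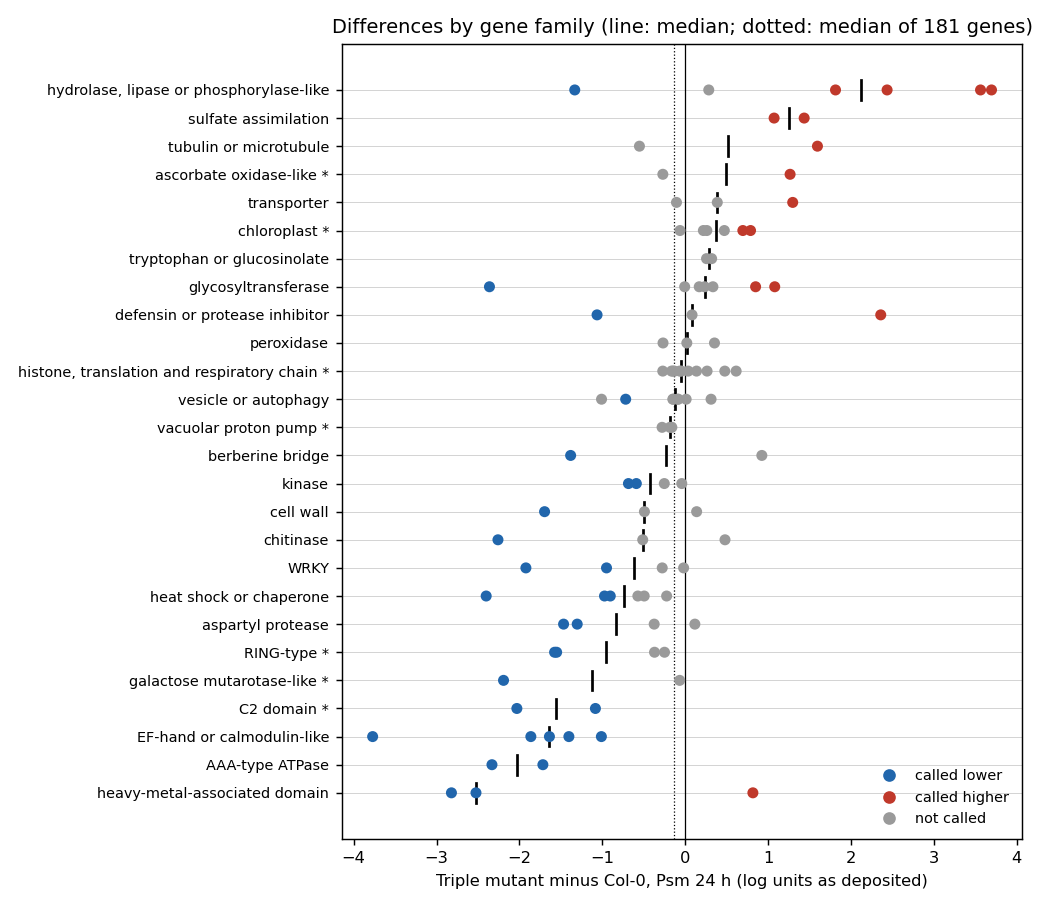
Each row is a gene family and each point 1 of its genes, with the difference between triple mutant and Col-0 under Psm on the horizontal axis in log units as deposited; blue, red and grey mark genes called lower, called higher and not called. Short black lines are group medians, the dotted line is the median of all 181 genes at -0.13, and an asterisk marks groups put together after values were seen; the 5 EF-hand or calmodulin-like genes all lie below -1, and 4 of the 6 hydrolase, lipase or phosphorylase-like genes lie from 1.81 to 3.70.

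The double mutant and pad4-1 were compared with the same 3 Col-0 arrays, so their values are given beside those of the triple mutant and not as separate evidence. The double mutant differed from Col-0 at 14 genes (7.73%), 7 higher and 7 lower (3.87% each), which fell to 8 without the Col-0 array or the double mutant array of set 3. Its split was 6 higher to 9 lower after quantile normalization. After re-centring on the named probes it was 6 to 14, and on all probes 6 to 7. For pad4-1 there were 4 genes (2.21%), 2 higher and 2 lower (1.1% each), and 9 to 11 on the other 3 scales. UGT76B1 differed from Col-0 by -0.57 in the double mutant and by 0.06 in pad4-1, against -2.36 in the triple mutant. For GRX480 the values were 0.15, 0.14 and -1.32, and for BIP1 they were 0.44, 0.18 and -0.97, so that for both genes the single and double mutant means lay slightly above Col-0 and the triple mutant below. AT1G76960 gave -0.59, -0.30 and -2.84. WRKY53 had another order, with -1.61 in the double mutant (adjusted p = 0.000873), -0.80 in pad4-1 (adjusted p = 0.114) and -1.92 in the triple mutant. Among the rises, AT4G17470 gave 2.67, 2.53 and 3.70 and AT1G54010 gave 1.83, 2.05 and 3.56, each called in all 3 genotypes. AT4G24340 differed by 1.99 in the double mutant, 0.66 in pad4-1 (adjusted p = 0.23) and 1.81 in the triple mutant.

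Set directly against the other mutants, the triple mutant differed from the double mutant at 61 genes (33.7%), 16 higher (8.84%) and 45 lower (24.9%), and from pad4-1 at 46 genes (25.4%), 13 higher (7.18%) and 33 lower (18.2%). Both of these comparisons use the same 3 triple mutant arrays. After quantile normalization the splits were 40 higher to 31 lower and 21 to 24, after re-centring on the named probes 34 to 35 and 17 to 26, and after re-centring on all probes 32 to 36 and 28 to 25, so the size and side of this imbalance depended on the scale. Against the double mutant UGT76B1 was lower by -1.79 (adjusted p = 0.000354), GRX480 by -1.48 (adjusted p = 0.00039), BIP1 by -1.42 (adjusted p = 0.00024) and AT5G39670 by -3.04 (adjusted p = 6.8e-05). WRKY53 was at -0.31 (adjusted p = 0.398) and AT4G24340 at -0.17 (adjusted p = 0.705), while AT4G17470 was higher by 1.03 (adjusted p = 0.00968) and AT1G54010 by 1.73 (adjusted p = 6.8e-05). Against pad4-1 WRKY53 fell by 1.12 (adjusted p = 0.00534) and AT4G24340 rose by 1.16 (adjusted p = 0.00836), the latter not called without the triple mutant array of set 1 (0.84, adjusted p = 0.0651) or the pad4-1 array of set 3 (1.03, adjusted p = 0.0513). PDF1.2 was not called in either, at 0.75 (adjusted p = 0.301) against the double mutant and 1.36 (adjusted p = 0.0669) against pad4-1, the latter called on the other 3 scales (adjusted p 0.0295 to 0.0439). The kinase gene AT1G11050 was higher than Col-0 in the double mutant (0.84, adjusted p = 0.00329), at 0.00 in pad4-1 and lower in the triple mutant, which makes a difference of -1.43 from double to triple mutant (adjusted p = 3.1e-05). Its fall from Col-0 in the triple mutant was not called on any of the other 3 scales or without the set as a block.

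With hrcC at 9 h, separate arrays of Col-0 and the triple mutant differed at 17 genes (9.39%), 1 higher (0.552%) and 16 lower (8.84%). With 2 arrays per group this count rested on single arrays: it was 1 without the Col-0 array of set 1 and 1 without the triple mutant array of set 1, 10 without the triple mutant array of set 2 and 22 without the Col-0 array of set 2. After quantile normalization the hrcC calls were 2 higher and 10 lower. They were 3 and 11 after re-centring on the named probes, 3 and 9 on all probes, and 1 and 11 without the block. Of the 49 falls under Psm, 15 were called lower after hrcC on the deposited scale (8.84% of all genes were), which is 15 of the 16 hrcC falls. Of the 20 rises under Psm 1 was called higher after hrcC, AT2G26690 at 1.19 (adjusted p = 0.00918). GRX480 fell by 2.27 under hrcC (adjusted p = 0.000572), UGT76B1 by 1.81 (adjusted p = 0.00918, and 0.0509 without the set as a block) and AT1G76960 by 2.93 (adjusted p = 0.00333). Leaving out 1 hrcC array leaves its group with 1, which is then assumed to vary like the other groups. GRX480 kept its call without each of the 4 arrays under that assumption. UGT76B1 (-1.56 and -1.13), AT1G76960 (-2.18 and -2.72) and AT2G26690 (0.99 and 0.95) lost theirs without the Col-0 or the triple mutant array of set 1. Over the 20 genes that rose under Psm the median hrcC difference was 0.25, against -0.08 over all genes, and over the 49 that fell it was -0.63. Strain and time differ together between these treatments, and their parts cannot be told apart.

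The mutant's effect under Psm minus its effect under hrcC was itself tested, and 7 genes passed (3.87%), 4 higher (2.21%) and 3 lower (1.66%). AT4G17470 read 3.64 and 3.03 in Col-0 and 4.01 and 3.64 in the triple mutant after hrcC, an effect of 0.49 against 3.70 under Psm, and the difference of effects was 3.21 (SE 0.46, adjusted p = 0.000242). AT1G54010 read 4.23 and 4.16 in Col-0 and 4.76 and 4.95 in the mutant, an effect of 0.66 against 3.56, with a difference of 2.90 (SE 0.38, adjusted p = 0.000128). Both kept this call when any of the 10 arrays involved was left out, where a group left with 1 hrcC array was again assumed to vary like the others. TUB6 and AT5G21105 were the other genes with a higher effect under Psm, by 1.46 (SE 0.39) and 1.04 (SE 0.26). TUB6 was brighter after hrcC than after Psm in Col-0, at 5.93 and 6.51 against 4.02 to 4.48, and the mutant arrays after Psm (5.79 to 6.04) lay near the hrcC values; this step between treatments was not tested.

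Lower effects under Psm were called for AT4G25900 (-1.84, SE 0.41, adjusted p = 0.0236), WRKY53 (-1.66, SE 0.43, adjusted p = 0.0417) and AT3G51330 (-1.43, SE 0.37, adjusted p = 0.0417). WRKY53 after hrcC stood at 4.66 and 4.37 in Col-0 and at 4.34 and 4.18 in the mutant, an effect of -0.26, so that of the 3 salicylic acid genes it was lower in the mutant under Psm and not called under hrcC. For UGT76B1 and GRX480 the effects did not pass the test of a difference (-0.55, adjusted p = 0.716, and 0.95, adjusted p = 0.253). On other scales the split of these calls was 2 higher to 4 lower (quantile normalization, re-centring on named probes) or 3 to 8 (re-centring on all probes). TUB6 and AT5G21105 each lost the call without 8 of the 10 arrays left out in turn, as did AT3G51330, WRKY53 without 9 and AT4G25900 without 4. AT3G51330 was also not called in the fit with no block for the set (adjusted p = 0.145), and it was not called after quantile normalization or re-centring on the named probes. AT5G21105 was not called on any of the other 3 scales, and TUB6 was not called after quantile normalization or re-centring on the named probes. The number of calls was 2 without the Col-0 or the triple mutant array of set 1 under Psm or the triple mutant array of set 2 under hrcC. It was 3 without the Col-0 array of set 3 under Psm or of set 2 under hrcC, 4 without the triple mutant array of set 3 under Psm and 13 without that of set 2.

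**Figure D4:**
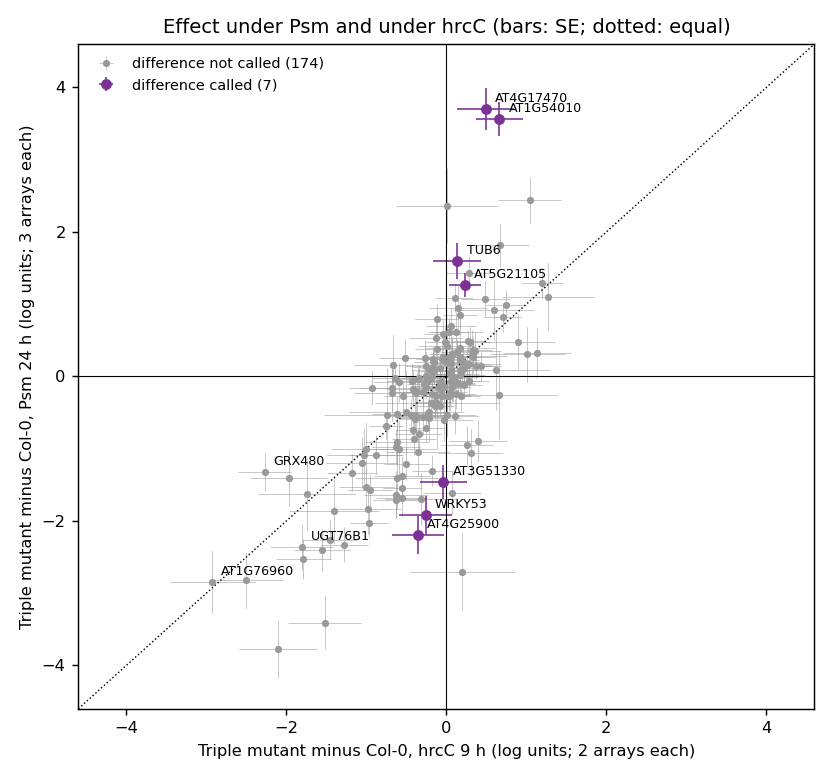
The horizontal axis is the difference between triple mutant and Col-0 at 9 h after hrcC (2 arrays each) and the vertical axis the same difference at 24 h after Psm (3 arrays each), both in log units as deposited, with bars for standard errors and a dotted line where they are equal. Each point is 1 of the 181 genes, and the 7 purple points are genes whose effects differed by the test, with AT4G17470 and AT1G54010 at 3.70 and 3.56 under Psm and 0.49 and 0.66 under hrcC.

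The single pair of arrays at 24 h after hrcC, from set 3, has no replicate and was not tested. There AT4G17470 read 3.75 in Col-0 and 2.38 in the triple mutant and AT1G54010 read 4.61 and 3.90, so the mutant was the lower of the pair for both. GRX480 read 6.59 in Col-0 and 3.46 in the mutant, AT1G76960 6.04 and 3.02 and UGT76B1 6.17 and 4.12, with the mutant lower as after Psm. WRKY53 read 4.36 and 4.14. Over the 20 genes that rose under Psm the median difference of this pair was 0.45, with a range from -1.37 to 1.95, and over the 49 that fell it was -0.51, from -3.12 to 1.77.

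Within sets, all 20 rises were above 0 in each of the 3 sets and 47 of the 49 falls were below 0 in each. The median difference of the falls was -1.90 in set 1, -1.01 in set 2 and -1.56 in set 3, and that of the rises was 1.23, 1.25 and 1.02. The falls were thus smallest in set 2, while the rises were of like size. In the triple mutant array of set 2, 15 genes read more than 1 log unit above both other mutant arrays, against 2 genes in set 1 and 1 in set 3. Heat shock genes were among them (Hsp70-2, AT3G09440, AT5G48570 and AT2G29500), and so were WRKY6, EXO, AT1G26380, AT2G18690 and AT4G39670, the last a glycolipid transfer protein-like gene. AT4G39670 read 5.88 in that array and 3.29 and 3.56 in the other mutant arrays, against 6.54, 5.82 and 5.28 in Col-0. Its difference was -1.63 (adjusted p = 0.0153) with all arrays and -2.46 (adjusted p = 5.88e-05) without that one, and it was named after its values were seen. Without the set 2 array of the mutant the count was again 69, but not of the same genes. AT5G48570 (-0.97, adjusted p = 0.0224), AT1G27100 (-0.92, adjusted p = 0.00366), AT2G29500 (-1.48, adjusted p = 0.0121) and WRKY22 (-0.57, adjusted p = 0.0438) were then called lower. COR47, LHCB4.3, AT2G28400 and AT2G22690 were then no longer called. Whether handling or infection differed for that sample was not tested.

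**Figure D5:**
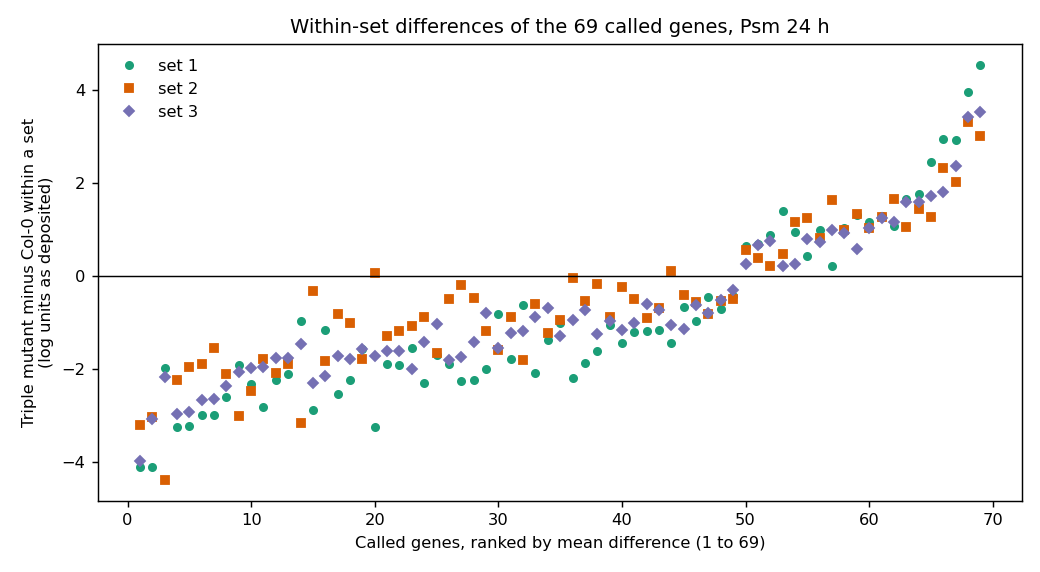
The horizontal axis ranks the 69 called genes by their mean difference and the vertical axis gives the difference between triple mutant and Col-0 within each set in log units as deposited, with circles for set 1, squares for set 2 and diamonds for set 3. All 20 rises are above 0 in every set, and 2 of the 49 falls are above 0 in set 2.

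At the threshold itself, the genes just inside were CML42 (adjusted p = 0.0332), AT3G09440 (adjusted p = 0.0354) and LHCB4.3 (adjusted p = 0.0365), and the genes just outside were ATPMEPCRB, a pectin methylesterase gene (-0.49, adjusted p = 0.0506), ATG8E (adjusted p = 0.0513) and AT4G01700 (adjusted p = 0.0589). Some of these depended on single arrays. The 3 calls just inside were each lost without 4 of the 6 arrays left out in turn, while ATPMEPCRB was called without the Col-0 array of set 3 (-0.61) and ATG8E without the Col-0 array of set 2 (-1.27) or the mutant array of set 3 (-1.22). AT4G01700 was not called when any 1 of these 6 arrays was left out (adjusted p from 0.0813 to 0.144), but it was without the whole of set 1 (adjusted p = 0.0464).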

How the data were processed

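Leaf RNA was amplified and labelled with Alexa555, per the labels' protocols, and hybridised to 1-colour arrays of 576 probes. The deposited value table holds 1 column per array, taken as log2 values; the lowest is 0.66 and the highest 11.4. Base of the logarithm, scanner, background correction and normalization fall under what was not given in the sources used here. No measure of signal over background was available here, and precision is limited by the number of arrays. GEO's platform annotation gives 1 gene name for 181 probes and none here for 395. Of the names, 180 matched a RefSeq gene table (TAIR10.1) by gene ID and 1 by locus tag, and 133 are locus codes; the table was used for names and gene order only. Families were assigned from general knowledge of the genes.

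All 9 groups that have replicates (23 arrays) were fitted together in limma 3.58.1 under R 4.3.3, using lmFit and eBayes, with a mean per group and the set as a block. Two-sided p-values were adjusted over the 181 genes by the Benjamini-Hochberg method, and genes were called at an adjusted p under 0.05; every adjusted p in the text comes from limma. The block was used because the labels call each set an experiment. Deviations from the group means correlated at 0.24, 0.18 and 0.60 between triple mutant and Col-0 of the same set (sets 1 to 3). Between different sets the values were -0.41 to 0.08. Deviations from a mean of 3 arrays add up to 0 for each gene, which ties these values together. The contrast is therefore no separate support for the block. Whether the sets came from separate sowings is not stated, so the p-values measure the spread between samples, pooled over all 23 arrays. On the 6 arrays alone the adjusted p in limma was larger, 0.00584 for AT1G54010 and 0.00745 for AT4G17470. In the main fit these were 8.66e-09 and 5.54e-08. A permutation test of 3 against 3 arrays cannot go below a two-sided p of 0.1. The fit was also run on simulated data with normal noise of the arrays' own spread and an added set effect. It recovered 21% of changes of 0.5 log units, 71.7% of changes of 1 and 98% of changes of 2, and 4.51% of calls were false. No shift of whole arrays was simulated, so the dependence on scaling was not covered. Noise was drawn gene by gene, so genes shifting together on an array were not covered either. The 4.51% of false calls holds for the simulated data only.

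Named are the 15 largest rises and falls among called genes whose groups do not overlap, measured members of the gene lists, called members of the families, the genes whose effect differed between treatments, and the 3 genes on either side of the threshold; non-called family members are given beside these, and other genes named in the paragraph on sets were chosen after their values were seen. The members, lists and families were chosen with earlier results of these data known. Alternatives were the fit without the block, 3 other scalings, fewer or more arrays or probes, a filter on dim probes (mean under 3.4), a trended robust fit, and leaving out each array or set; those for the double mutant, pad4-1 and hrcC values were added after seeing the data.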

Additional observations from a re-analysis of the deposited data

Results flagged for a closer look

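The effect of the triple mutant differed between Psm at 24 h and hrcC at 9 h, by the test of that difference in limma, for 7 genes. The difference of effects, Psm minus hrcC, was 3.21 for AT4G17470, 2.90 for AT1G54010, 1.46 for TUB6 and 1.04 for AT5G21105. It was -1.84 for AT4G25900, -1.66 for WRKY53 and -1.43 for AT3G51330. Over the left-out arrays and other settings the value ranged from 2.79 to 3.61 for AT4G17470 and from 2.69 to 3.11 for AT1G54010, and both kept their calls throughout. For the other 5 genes the calls were lost without 4 to 9 of the 10 arrays left out in turn.

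Signal was also present in probes outside the comparisons above. Of the 395 probes without a gene name here, 182 (46.1%) differed between triple mutant and Col-0 under Psm when all 576 probes were fitted together, 69 higher and 113 lower.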

How the results depend on the processing

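The count of genes that differed between triple mutant and Col-0 under Psm was 69 with the set as a block and 62 without the replicate block (18 higher and 44 lower), and all 62 were among the 69. It was 75 after quantile normalization, 70 and 71 after re-centring on the named or on all probes, 75 with the 12 Psm arrays only, 51 with the 6 arrays only, 58 of 130 genes above the limit for dim probes and 71 with a trended robust fit. Above the limit for dim probes all 20 rises but only 37 of the 49 falls kept their call. The filter left out, among others, the falls AT4G00700, AT1G08050, AT1G26380, AT3G62780, AT3G09010 and AT1G11050. With all 576 probes tested the count was 253, of which 71 were named genes. Leaving out 1 of the 6 arrays or 1 set gave 50 to 69, with the lowest count without the triple mutant array of set 1 or without set 1. The number of genes whose effect differed between Psm and hrcC was 7, became 11 after re-centring on all probes, and ranged from 2 to 13 over left-out arrays, with 13 without the triple mutant array of set 2 under Psm. Counts of the triple mutant against the double mutant (61) and pad4-1 (46) stayed within 1.5 times under the alternatives run for them. The alternatives for the other counts were chosen after seeing the data: double mutant against Col-0 gave 14, and 8 to 15 over left-out arrays; pad4-1 against Col-0 gave 4, and 11, 9 and 10 after quantile normalization and re-centring on named or all probes; triple mutant against Col-0 after hrcC gave 17, and 1 to 22 over left-out arrays. Of 51 called genes followed through the settings, 35 kept the call in every fit that tested them and none reversed. The 35 include AT4G00700 and AT1G08050, which the filter on dim probes left out. Over the 51 genes and the 3 just outside the threshold, 70 values lost the call and 13 gained it. Calls that turned on the block among the named genes were those of AT1G11050, AT2G38870, AT3G09440, CML42 and LHCB4.3 under Psm, UGT76B1 after hrcC and AT3G51330 in the difference between treatments. The cause of these shifts was not tested.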
